A study of Bubalus bubalis with 6 samples.

Results

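Integrins and focal adhesion genes, the receptors and adaptor proteins that tie a cell to its surrounding matrix, were followed through the myogenic differentiation of buffalo muscle stem cells (MuSCs). The set was defined by a list of 37 gene symbols, 19 integrin subunits and 18 partners, and its members were found by symbol in the gene table of the series. The table lists 24616 genes, and 35 of the 37 symbols are among them. ITGB3 and LIMS1 are not listed by symbol and were not analysed here. All 35 listed members passed the filter of at least 10 counts in total, as did 15576 genes of the whole table.

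PolyA-seq compared 3 GM samples, MuSCs that proliferated in growth medium, with 3 DM samples, MuSCs that had been moved to differentiation medium. The cells were primary water buffalo (Bubalus bubalis) MuSCs from fetal longissimus muscle, released from the tissue with type I collagenase and trypsin. For the sequenced samples the methods name no transgene, and no drug beyond the antibiotics of the medium. GM was high-glucose DMEM with fetal bovine serum and antibiotics, and DM was DMEM with a low share of horse serum, given to nearly confluent cells for some days. The groups therefore differ in serum, in time and in cell density as well as in differentiation, and these cannot be told apart. Neither the labels nor the methods say how many fetuses the cells came from or whether each sample was a culture of its own, so the p-values below measure only the spread between these samples, which may be technical.

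Gene counts per sample ranged from 35615864 to 40305237. DES (desmin), a marker of muscle cells, measured at least 1787 CPM (counts scaled to the sample's normalized library size) in every sample. Of 11 listed muscle markers 8 were called, 7 of them higher in DM, and their summed RPKM (reads scaled to gene length and to the sample's total) ranged from 1383 to 1710 in GM and from 4862 to 6883 in DM samples. All 8 markers of dividing cells fell, with summed RPKM of 506 to 509 in GM and 94.8 to 130.2 in DM samples. Fibroblast markers moved with the groups as well, with 8 of 10 tested markers called higher and sums of 8092 to 8299 RPKM against 21074 to 26264, and their part in the results below was not tested. Markers of endothelial cells summed to at most 8.96 RPKM in any sample, those of leukocytes to 7.44 (with PTPRC and TYROBP too low for a test), of epithelial cells to 15.8, of Schwann cells to 2.76 and of adipocytes to 6.72. In the same order, 4 of 8, 3 of 8, 5 of 7, 1 of 3 and 3 of 6 tested markers were called. Those called higher and lower were 1 and 3, 2 and 1, 4 and 1, 0 and 1, and 2 and 1. Of the markers of smooth muscle cells and pericytes 3 of 9 were called, all higher, with sums of 626 to 726 RPKM in GM and 728 to 831 RPKM in DM. Most of these sums was ACTA2, at 599 RPKM in GM and 635 RPKM in DM, which was not called. The called markers went from 0.174 to 8.09 RPKM (KCNJ8), 0.413 to 9.31 RPKM (ABCC9) and 16.2 to 51.9 RPKM (PDGFRB). The part of these cells in the results below was not tested either. All these counts stand beside 25.3% of all tested genes called, 15.0% higher and 10.3% lower. DM replicate 3 stood apart from the other DM samples on the second principal component, which held 8.79% of the variance against 80.5% on the first. Members whose difference rests on it are also given without it.

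An integrin is a heterodimer of 1 alpha and 1 beta subunit that binds matrix proteins outside the cell and the actin cytoskeleton inside it. The alpha subunit largely sets the ligand: collagens, laminins, or proteins that carry the RGD motif such as fibronectin and vitronectin. Kindlins and talins bind the beta subunit's tail and switch the receptor on, after which integrin-linked kinase (ILK), PINCH proteins and parvins form a scaffold, and focal adhesion kinase and paxillin carry the signal. In muscle the laminin receptor of alpha7 and beta1 anchors the fibre to its basement membrane, and integrins also take part in the adhesion and fusion of myoblasts.

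A gene was called when its absolute log2 fold change between DM and GM was above 1 and its p-value, adjusted over all tested genes in edgeR's quasi-likelihood test, was under 0.05. Of the 35 members, 11 were called (31.4%), against 25.3% of all tested genes. There were 7 called higher in DM (20.0%, against 15.0% of all genes) and 4 called lower (11.4%, against 10.3%). The genes that rose were TNS3, ITGB1BP2, ITGB6, ITGB7, ITGA4, ITGB5 and ITGA11, and those that fell were ITGA7, ITGB8, PXN and ITGA2. A test against a fold change of 2 ended the calls of ITGA4, ITGB5, ITGB7, ITGA11 and ITGA2, and the study's RPKM minimum left ITGB1BP2, ITGB6, ITGB7 and ITGA2 untested. With no minimum fold change, 28 members had an adjusted p under 0.05 (80.0%, against 63.0% of all genes), 13 higher and 15 lower in DM. The samples of GM and DM did not overlap in 30 members (85.7%, against 68.8% of all genes). The median log2 fold change of the members was 0.15, and 0.03 over all tested genes. Without DM replicate 3 the members' median was -0.053, for which no matching median of all genes is given here. In these bulk samples, fewer cells of a type and less RNA per cell cannot be told apart.

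**Figure D1:**
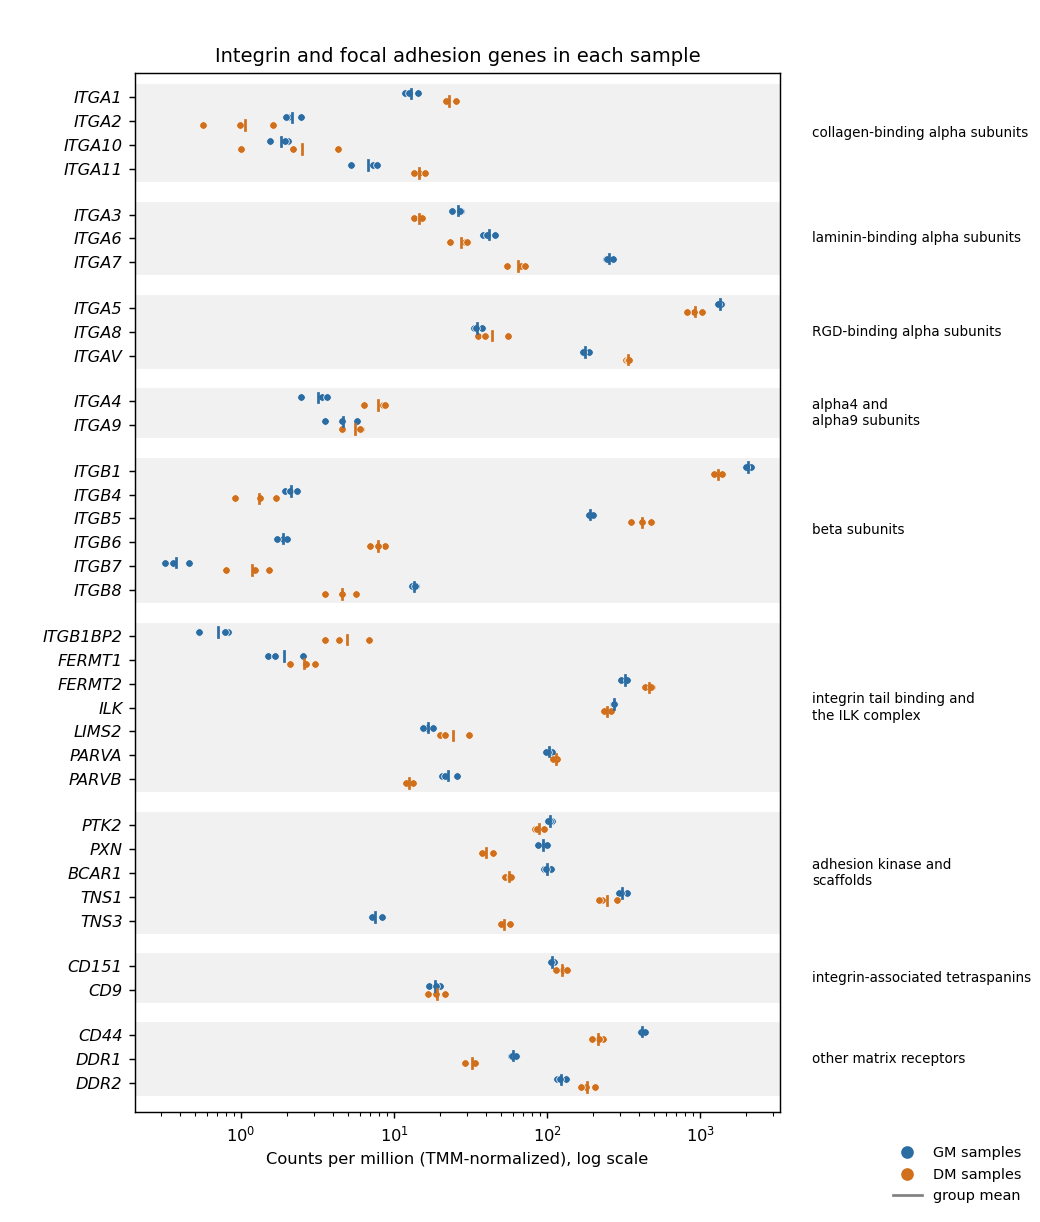
Normalized counts (CPM, log axis) of the 35 listed members in each of the 3 GM samples (blue) and 3 DM samples (orange), with a vertical bar at each group mean and the genes ordered by role. TNS3, ITGB6 and ITGB1BP2 stand clearly to the right in DM samples and ITGA7 to the left, while ITGB1 and ITGA5 are the most counted members in both groups.

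Together the members took between 0.638 and 0.660% of a GM sample's gene counts, and between 0.482 and 0.515% of a DM sample's. Compared per length, ITGB1, the common beta subunit that pairs with most alpha chains, was the member with the highest level in both groups, at 576 ± 23.3 RPKM in GM (SD, n = 3) and 344 ± 22.7 RPKM in DM. It ranked 153rd of all genes in GM and 221st in DM. ITGA5, the alpha chain of the fibronectin receptor, came next with 311 ± 5.96 RPKM in GM and 201 ± 21.8 RPKM in DM, and its samples overlapped with no neighbour in that order. In GM samples ILK (166 RPKM), CD44 (131 RPKM) and FERMT2 (102 RPKM) followed, and in DM samples ITGB5 (153 RPKM), ILK (141 RPKM), FERMT2 (138 RPKM), ITGAV (103 RPKM) and PARVA (100.3 RPKM). The DM samples of ITGB5, ILK and FERMT2 overlapped with one another, so their order is not resolved, and neither is that of ITGAV and PARVA. At the low end, 8 members in GM and 5 in DM had a mean level below 1 RPKM, and ITGB7 in GM was the lowest with 0.150 RPKM.

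The collagen-binding alpha subunits did not move together. ITGA11, a receptor for fibrillar collagen best known from fibroblasts, measured 7.33, 5.26 and 7.70 CPM in GM replicates 1 to 3 and 14.5, 13.5 and 15.9 CPM in DM replicates 1 to 3. It rose by 1.11 ± 0.15 on the log2 scale (SE, edgeR adjusted p = 8.26e-05), with no overlap between groups, but without GM replicate 2 the value was 0.96 and the call was lost. ITGA1, which prefers basement membrane collagen, was also higher in every DM sample, at 12.9 ± 1.36 CPM in GM and 23.0 ± 2.03 CPM in DM. Its log2 fold change of 0.83 stayed under the minimum (edgeR adjusted p = 5.06e-05).

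ITGA2, the other classical collagen receptor chain, is listed beside ITGA1 on chromosome 20 (ITGA2 at 25984555 to 26089593, ITGA1 at 26116747 to 26227530, both on the minus strand; the tables name no genome build) and went the other way. Its values were 2.03, 2.45 and 1.98 CPM in GM and 0.562, 0.984 and 1.62 CPM in DM, a fall by 1.02 ± 0.35 on the log2 scale (edgeR adjusted p = 0.0247). All DM samples lay below all GM samples, but the call was lost without GM replicate 1 or 2 and without DM replicate 1 or 2, and its log2 fold change ranged from -1.46 without DM replicate 3 to -0.71. ITGA10, a collagen receptor typical of cartilage, gave no reliable difference: DM replicates held 1.01, 2.19 and 4.32 CPM around the 1.54 to 2.03 CPM of GM samples, and the log2 fold change of 0.46 (edgeR adjusted p = 0.366) became -0.18 without DM replicate 3. Fibroblast markers, named above, were also higher in the DM group than in GM, as ITGA1 and ITGA11 were. A match from sample to sample within DM is not claimed, and the part of these markers was not tested.

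All 3 laminin-binding alpha subunits were lower in DM. ITGA7, the laminin receptor chain characteristic of skeletal muscle, counted 10084, 10298 and 10154 reads in GM and 2286, 2628 and 2032 reads in DM. On the normalized scale these were 243, 248 and 268 CPM against 67.7, 71.8 and 54.9 CPM. ITGA7 (chromosome 5, 57874054 to 57898519, plus strand) thus had the largest fall of any member, by 1.96 ± 0.10 on the log2 scale or 3.90-fold (edgeR adjusted p = 5.02e-08), and stayed called in all 15 alternative settings. ITGA3 was 25.99 ± 1.96 CPM in GM and 14.5 ± 0.975 CPM in DM, and ITGA6 41.5 ± 3.76 and 27.4 ± 3.72 CPM. These laminin receptor chains, typical of epithelia, had log2 fold changes of -0.84 and -0.60 (edgeR adjusted p = 1.71e-05 and 0.000605), under the minimum for a call. Over the 3 genes the summed RPKM was 85.8 ± 3.66 in GM and 26.1 ± 2.43 in DM, and the groups did not overlap.

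Of the RGD-binding alpha subunits, ITGA5 and ITGAV differed in opposite directions and neither was called. ITGA5 measured 1330, 1369 and 1316 CPM in GM and 918, 824 and 1031 CPM in DM, a log2 fold change of -0.53 ± 0.08 (edgeR adjusted p = 0.000173). ITGAV, the chain that pairs with beta1, beta3, beta5, beta6 and beta8 to bind vitronectin, fibronectin and latent TGF-beta, measured 187, 172 and 172 CPM in GM and 325.5, 335 and 345 CPM in DM. Its log2 fold change of 0.92 ± 0.06 (edgeR adjusted p = 3.77e-07) was just under the minimum of 1, and the groups did not overlap. ITGA8, known from smooth muscle and other mesenchymal cells, had 37.5, 33.4 and 34.4 CPM in GM and 35.3, 39.1 and 55.75 CPM in DM. Its groups overlapped, and the log2 fold change of 0.31 (edgeR adjusted p = 0.0883) was 0.09 without DM replicate 3, its highest sample.

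The remaining alpha chains, ITGA4 and ITGA9, form a subfamily that binds fibronectin splice forms, VCAM1 or tenascin. ITGA4 rose from 3.38, 2.48 and 3.67 CPM to 8.53, 8.72 and 6.38 CPM, by 1.31 ± 0.19 on the log2 scale (edgeR adjusted p = 0.000157). ITGA9 differed by 0.26 with overlapping samples (edgeR adjusted p = 0.292), from 3.53 to 5.74 CPM in GM and from 4.56 to 6.07 CPM in DM.

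**Figure D2:**
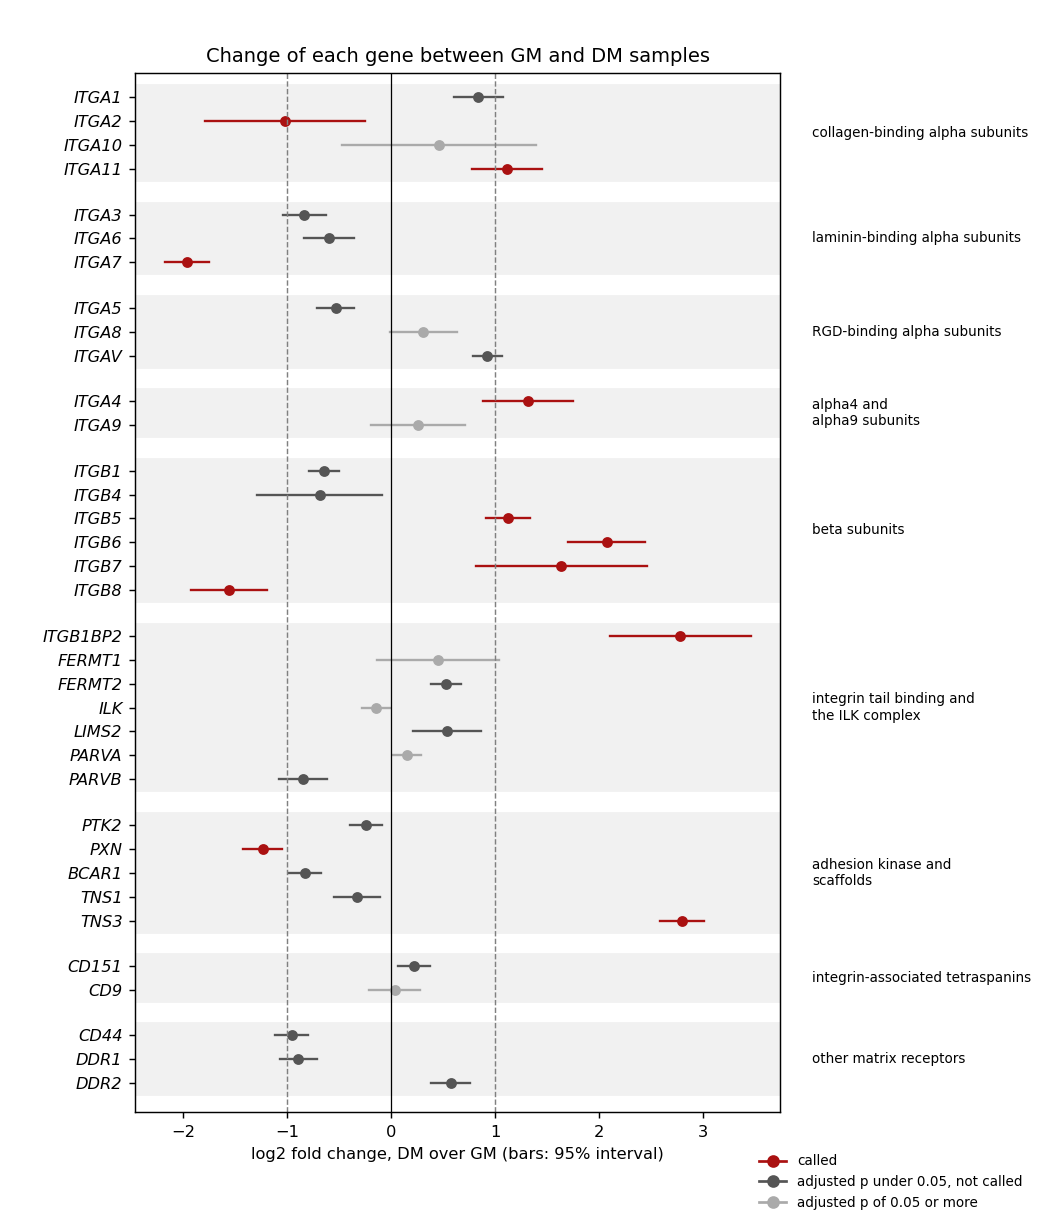
Log2 fold change (DM over GM, positive is higher in DM) of the 35 tested members with 95% intervals, grouped by role, with dashed lines at the minimum of 1 in either direction and called genes in red. Values run from -1.96 for ITGA7 to 2.80 for TNS3, and the 11 called genes are spread over 6 of the 9 roles.

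Of the 6 listed beta subunits 4 were called (66.7%, against 25.3% of all genes), and the groups did not overlap in any of the 6 (68.8% of all genes did not overlap). ITGB5, the vitronectin receptor partner of alphaV, had 189, 188 and 199 CPM in GM and 420.0, 356 and 477 CPM in DM. It rose by 1.12 ± 0.10 on the log2 scale (2.18-fold, edgeR adjusted p = 2.32e-06). ITGB6, another alphaV partner, known from epithelia as an activator of latent TGF-beta, was at 1.88, 1.73 and 2.005 CPM in GM and 6.99, 8.77 and 7.81 CPM in DM. It rose by 2.07 ± 0.17 (edgeR adjusted p = 1.55e-06), the largest rise of an integrin subunit, from 0.753 to 2.96 RPKM. ITGB7, the partner of alpha4 in lymphocyte homing, rose by 1.63 ± 0.37 (edgeR adjusted p = 0.00279) but from only 15, 19 and 12 counts in GM to 27, 45 and 56 counts in DM.

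ITGB8, the third alphaV partner in the list that acts on latent TGF-beta, went against ITGB5 and ITGB6. It measured 13.9, 13.1 and 13.7 CPM in GM and 4.59, 5.68 and 3.51 CPM in DM, and fell by 1.56 ± 0.16 on the log2 scale (2.95-fold, edgeR adjusted p = 1.19e-05). ITGB1 itself was lower in every DM sample, with 2139, 2001 and 2006 CPM in GM and 1309, 1384 and 1236 CPM in DM. Its log2 fold change of -0.65 ± 0.06 (edgeR adjusted p = 8.16e-06) did not reach the minimum. ITGB4, the hemidesmosome chain that pairs with alpha6, was scarce throughout, at 2.11 ± 0.197 CPM in GM and 1.32 ± 0.385 CPM in DM, with a log2 fold change of -0.69 (edgeR adjusted p = 0.0462).

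Taken per length, the make-up of integrin subunit transcripts differed between the groups. ITGA5 held 65.1, 67.1 and 65.1% of the summed alpha subunit RPKM in GM samples and 57.4, 53.6 and 58.4% in DM samples. ITGAV held 12.9, 11.9 and 11.98% in GM and 28.7, 30.8 and 27.6% in DM, and ITGA7 held 14.1, 14.4 and 15.7% in GM and 5.02, 5.55 and 3.69% in DM. The second most abundant alpha chain was thus ITGA7 in GM and ITGAV in DM. Laminin-binding chains together made up 18.1 ± 0.868% of alpha RPKM in GM and 7.39 ± 1.09% in DM, RGD-binding chains 80.0 ± 0.918% and 88.5 ± 1.09%, and collagen-binding chains 1.40 ± 0.141% and 3.02 ± 0.186%.

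Among beta chains, ITGB1 held 88.3, 87.6 and 87.0% of summed RPKM in GM and 68.5, 72.8 and 64.5% in DM, while ITGB5 held 10.8, 11.5 and 11.99% and 30.6, 26.04 and 34.6%. ITGB8 and ITGB6 each stayed below 1% in every sample, and ITGB6 (0.589% in DM) took the place of ITGB8 (0.751% in GM) as the third chain. No sample of one group overlapped with the other in the shares of ITGA5, ITGAV, ITGA7, ITGB1, ITGB5, ITGB6 or ITGB8. With 3 samples per group, the exact two-sided permutation test cannot go below p = 0.1, the value it gave for each of these shares (0.12 after Benjamini-Hochberg adjustment over the subunits of a class). Shares are parts of a whole, so one chain's share depends on the others.

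**Figure D3:**
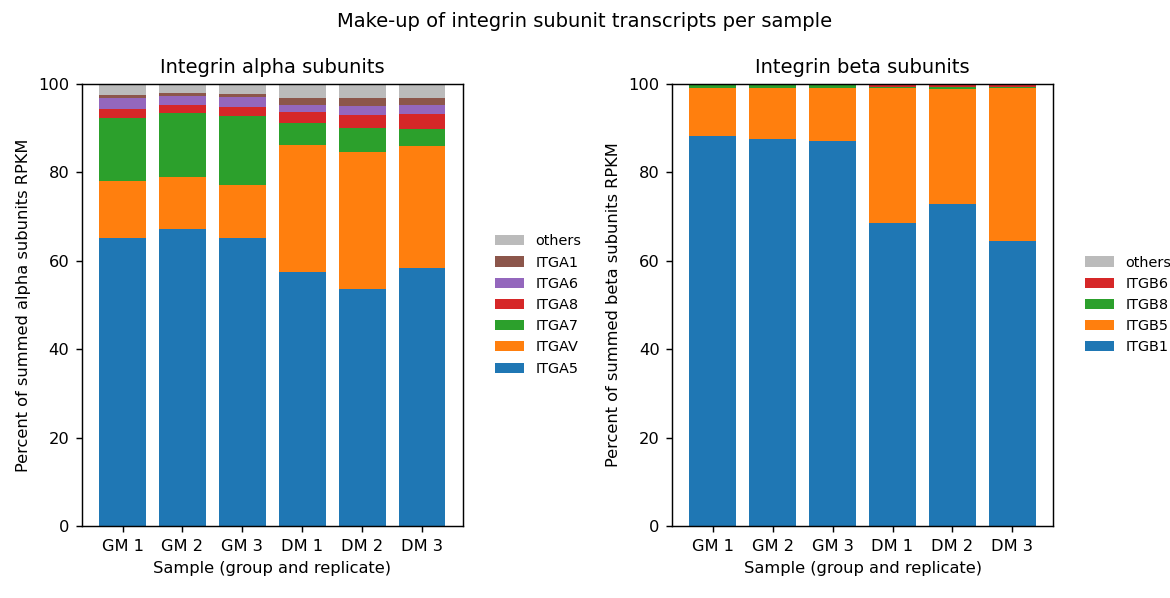
Share of each integrin alpha subunit (left) and beta subunit (right) in the summed RPKM of its class, in percent, as 1 stacked bar per sample. ITGAV and ITGB5 take a larger part of the DM bars, near 29.0 and 30.4% on average against 12.3 and 11.4% in GM, and ITGA7 a smaller one.

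The summed alpha subunit RPKM was 474 ± 2.98 in GM and 355 ± 25.7 in DM, and that of beta subunits 657 ± 22.6 and 502 ± 8.04. Their ratio overlapped between the groups, at 0.721 ± 0.0215 in GM and 0.708 ± 0.0484 in DM (exact two-sided permutation p = 0.7, 0.737 after Benjamini-Hochberg adjustment over 20 sums, shares and ratios, n = 3 per group). Both sums were lower in each DM sample than in each GM sample. RPKM uses totals without TMM factors, which were at least 1.03 in GM and at most 0.983 in DM samples. DM levels therefore come out somewhat lower beside GM in RPKM than in CPM.

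Inside the cell, a protein that binds the integrin tail showed one of the largest changes among the members. ITGB1BP2 (melusin; chromosome X, 84657971 to 84661552, minus strand) is a muscle-restricted partner of the beta1 tail. It had 22, 34 and 30 counts in GM and 119, 159 and 253 counts in DM, or 0.531, 0.817 and 0.791 CPM against 3.52, 4.34 and 6.84 CPM. It rose by 2.78 ± 0.30 on the log2 scale (6.86-fold, edgeR adjusted p = 1.60e-05), and by 2.47 without DM replicate 3, its highest sample. Even so it stayed low against its partner, with 0.585 RPKM beside the 576 RPKM of ITGB1 in GM, and 3.77 RPKM beside 344 RPKM in DM.

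No kindlin and no member of the ILK complex was called. FERMT2 (kindlin-2), the main kindlin of muscle, measured 331, 304 and 333 CPM in GM and 439, 484 and 475 CPM in DM, a log2 fold change of 0.53 (edgeR adjusted p = 3.82e-05). FERMT1 (kindlin-1), the epithelial form, had 1.90 ± 0.573 CPM in GM and 2.59 ± 0.468 CPM in DM, with overlapping samples. ILK had 269.8, 273 and 274 CPM in GM and 246, 234 and 260 CPM in DM, and its log2 fold change of -0.14 missed the threshold (edgeR adjusted p = 0.0559, 95% interval -0.28 to -0.01). The ILK gene overlaps TAF10 on the opposite strand, and reads of the pair may not be separable, since the sources used here do not state whether counting used strand.

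The parvins, which link ILK to actin, parted. PARVA, the widespread form, had 107, 101 and 98.8 CPM in GM and 116, 116 and 109.6 CPM in DM, a log2 fold change of 0.15 (edgeR adjusted p = 0.0517), and PARVB 22.6 ± 2.60 CPM in GM and 12.6 ± 0.693 CPM in DM, a log2 fold change of -0.85 (edgeR adjusted p = 3.76e-05). LIMS2 (PINCH-2), the ILK partner that remains in the list, was 16.6 ± 1.18 CPM in GM and 24.1 ± 5.81 CPM in DM with a log2 fold change of 0.54, and 0.33 without DM replicate 3, its highest sample at 30.8 CPM.

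Among the adhesion kinase and scaffolds, PXN fell and TNS3 rose. PXN (paxillin; chromosome 17, 64818100 to 64833437, minus strand), the docking protein of focal adhesions, measured 95.9, 99.5 and 87.7 CPM in GM and 37.9, 37.8 and 44.6 CPM in DM, a fall by 1.23 ± 0.08 on the log2 scale (2.35-fold, edgeR adjusted p = 4.87e-07). BCAR1 (p130Cas), a scaffold that responds to stretch, was lower in the same samples, at 100.01 ± 5.81 and 56.3 ± 2.50 CPM, with a log2 fold change of -0.83 (edgeR adjusted p = 2.07e-06). PTK2, focal adhesion kinase itself, was at 105 ± 3.31 CPM in GM and 88.6 ± 6.58 CPM in DM, a log2 fold change of only -0.24 (edgeR adjusted p = 0.0110).

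TNS3 (tensin-3; chromosome 4, 75451285 to 75567973, plus strand) couples integrin tails to actin in fibrillar adhesions. It had 296, 298 and 314 counts in GM and 1677, 1831 and 2112 counts in DM, or 7.14, 7.16 and 8.28 CPM against 49.7, 50.03 and 57.1 CPM. The lowest DM sample lay far above the highest GM sample. This was the largest rise among the members, by 2.80 ± 0.10 on the log2 scale or 6.95-fold (edgeR adjusted p = 6.17e-09), and it ranged from 2.70 to 2.87 over the 15 alternative settings. The rise of ITGB1BP2, by 2.78 ± 0.30, was so close that the order of TNS3 and ITGB1BP2 is not resolved. TNS1 (tensin-1), the more abundant relative, was at 309 ± 18.9 CPM in GM and 246 ± 37.2 CPM in DM, with a log2 fold change of -0.33 (edgeR adjusted p = 0.0132), and remained above TNS3 per length in both groups, at 33.1 against 11.1 RPKM in DM.

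The tetraspanins of the list, membrane organizers that associate laterally with integrins, differed little. CD151, which binds laminin receptors, was at 108 ± 2.63 CPM in GM and 125 ± 9.95 CPM in DM (log2 fold change 0.22, edgeR adjusted p = 0.0191). CD9, involved in cell fusion, had overlapping samples and a log2 fold change of 0.03 (edgeR adjusted p = 0.815, 95% interval -0.21 to 0.27), whose sign depended on the scaling and on single samples.

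None of the 3 matrix receptors that are not integrins was called. CD44, the hyaluronan receptor, measured 413, 409 and 437 CPM in GM and 233, 218 and 198 CPM in DM, a log2 fold change of -0.96 ± 0.07 (edgeR adjusted p = 8.55e-07), and it was called when library size alone was used for scaling (-1.06) and without DM replicate 1 (-1.01). DDR1 and DDR2, receptor tyrosine kinases activated by collagen, differed in opposite directions. DDR1, the form of epithelia, had 58.1, 59.1 and 62.6 CPM in GM and 28.9, 33.8 and 34.0 CPM in DM (log2 fold change -0.89, edgeR adjusted p = 3.63e-06). DDR2, the mesenchymal form, had 133, 117 and 121 CPM in GM and 204, 180.0 and 166 CPM in DM (log2 fold change 0.57, edgeR adjusted p = 0.000153).

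Ratios of RPKM between related genes describe 6 pairs that were chosen after their values were seen, so that their separation is no test. TNS3 over TNS1 was 0.0384 ± 0.00526 in GM and 0.336 ± 0.0238 in DM, and ITGB5 over ITGB1 was 0.130 ± 0.00759 and 0.447 ± 0.0892. DDR2 over DDR1 was 2.46 ± 0.233 in GM and 6.88 ± 1.38 in DM, and ITGAV over ITGA5 was 0.187 ± 0.0108 and 0.516 ± 0.0530. PARVA over PARVB was 4.18 ± 0.558 and 8.33 ± 0.703, and PTK2 over PXN was 0.391 ± 0.0185 and 0.778 ± 0.0200. Also computed but left out of the plot, FERMT2 over FERMT1 overlapped between the groups, at 187 ± 48.0 in GM and 191 ± 26.1 in DM. ITGB1BP2 over ITGB1, left out as well, was 0.00102 ± 0.000259 and 0.0111 ± 0.00446.

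**Figure D4:**
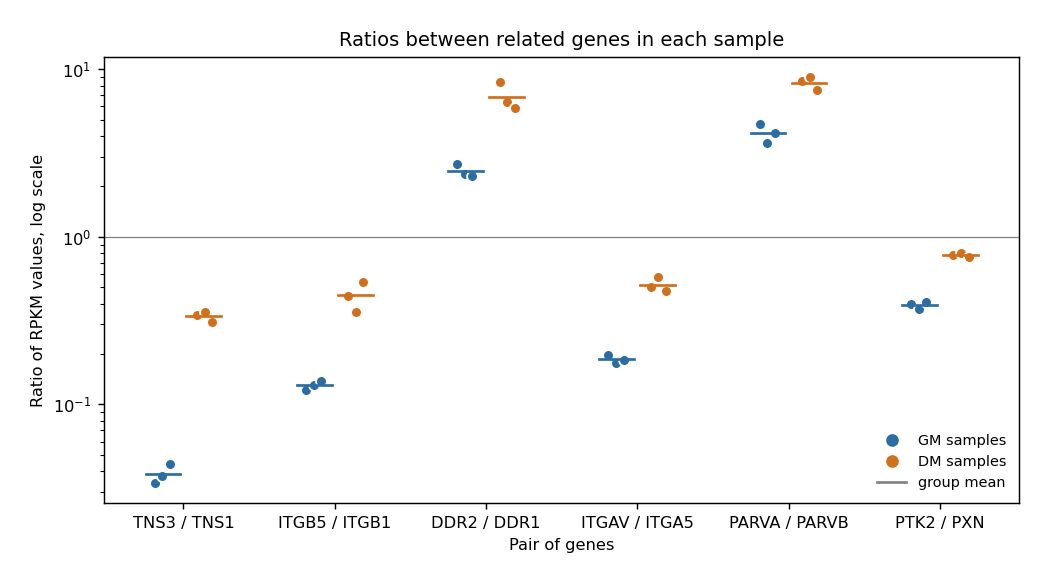
Ratio of the RPKM values of 6 pairs of related members, chosen after their values were seen (log axis), in each GM sample (blue) and DM sample (orange), with a line at each group mean. Every DM sample lies above every GM sample for each pair shown, with the widest gap among them for TNS3 over TNS1.

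The mRNA table, counted from the same libraries and therefore no independent evidence, lists 44 transcripts of these 35 genes. Single transcripts are listed for 29 genes, and PTK2, DDR1, CD44, ITGB1, ITGA3 and CD151 have 15 together, whose counts share reads. The test called 11 transcripts (25%, against 25.6% of all tested mRNA transcripts), 7 higher and 4 lower, each for a gene called in the same direction. The largest departure of a transcript's log2 fold change from that of its gene was 0.10, in ITGA3.

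Wider lists from the same pathways were counted in the same test. Of focal adhesion adaptors and signaling genes, 9 of 66 tested rows were called (13.6%, against 25.3% of all genes), 4 higher and 5 lower, and the list's median was -0.14 on the log2 scale. ZYX (zyxin), which gathers actin regulators at adhesions, had 931 ± 37.9 CPM in GM and 308 ± 13.2 CPM in DM and fell by 1.60 on the log2 scale. FLNC, the actin crosslinking filamin of muscle, fell from 1692 ± 51.6 to 572 ± 58.8 CPM, by 1.56. FYN, a Src family kinase, rose from 29.3 ± 1.72 to 73.4 ± 8.39 CPM, by 1.32, and APBB1IP (RIAM), which brings talin to integrins, from 10.2 ± 0.346 to 26.1 ± 0.958 CPM, by 1.35. The lowest point in the plot of gene lists is TNS4, another tensin of 4.61 ± 0.742 CPM in GM and 0.204 ± 0.0366 CPM in DM, named here after its value was seen. Of core adaptors also named afterwards, TLN1 (talin-1) and VCL (vinculin) were not called, with log2 fold changes of -0.29 and -0.40. TLN2 (talin-2) fell by 1.13, from 47.7 ± 3.71 to 21.7 ± 1.18 CPM, and ACTN4 (alpha-actinin-4) by 1.06, a call that was lost without DM replicate 2 (-0.97).

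Of the integrin ligands 28 of 51 tested genes were called (54.9%, against 25.3% of all genes), 18 higher and 10 lower, and the list's median was 0.70 on the log2 scale. EDIL3, an RGD protein that binds alphaV integrins, went from 11.2 ± 2.16 to 98.6 ± 13.8 CPM, a rise of 3.14 (log2), and NID1 (nidogen-1), a basement membrane linker, from 74.0 ± 6.65 to 518 ± 60.7 CPM, by 2.81. THBS1 (thrombospondin-1) fell from 4725 ± 336 to 764 ± 37.3 CPM, by 2.63. LAMA1, a laminin chain, was at 121, 120 and 113 CPM in GM and 9.59, 10.7 and 55.9 CPM in DM. It fell by 2.21, and by 3.54 without DM replicate 3. Some ligands of receptors described above were also named after their values were seen. FN1 (fibronectin) rose from 6851 ± 554 to 26903 ± 2910 CPM. LAMA2, a laminin chain of muscle, rose from 41.0 ± 3.93 to 156 ± 4.90 CPM. LAMA5, another laminin chain, fell from 608 ± 10.02 to 158 ± 30.9 CPM, and TNC (tenascin-C) from 4232 ± 110 to 2075 ± 616 CPM. The call of TNC was lost without DM replicate 1 or 2, where its log2 fold change was as small as -0.87. The collagens COL1A1, COL1A2 and COL3A1 stand in the ligand list and among the fibroblast markers alike.

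Of further tetraspanins and their immunoglobulin superfamily partners PTGFRN and IGSF8, 10 of 27 were called (37.04%, against 25.3% of all genes), 7 higher and 3 lower, around a median of 0.45. CD82 rose by 1.37 on the log2 scale and TSPAN5 by 1.03, while TSPAN18 fell by 1.38 and TSPAN12 by 1.15. The call of TSPAN5 was lost when library size alone was used for scaling. Of the genes of hyaluronan, the ligand of CD44, 5 of 17 were called (29.4%, against 25.3% of all genes), 2 higher and 3 lower, with a median of -0.27. HAS2, the main hyaluronan synthase of mesenchymal cells, fell from 103 ± 1.54 to 19.2 ± 1.93 CPM, by 2.41, and HMMR, a hyaluronan receptor that is also a mitotic protein, by 2.16. TNFAIP6, which crosslinks hyaluronan, rose from 8.29 ± 0.581 to 28.1 ± 3.51 CPM, by 1.76. Of the other integrin subunits, mostly of leukocytes, 4 of 6 listed genes could be tested and ITGB2 alone was called, below 1 CPM in both group means and with overlapping samples.

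**Figure D5:**
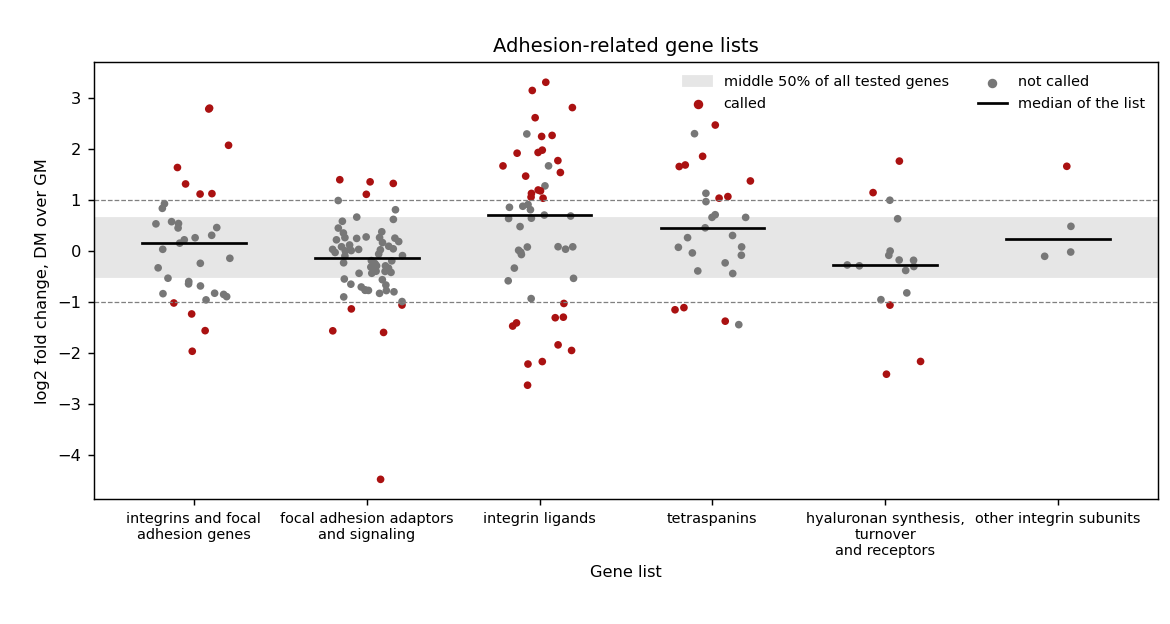
Log2 fold change (DM over GM) of every tested gene of the integrin and focal adhesion set and of 5 related lists, with called genes in red, a black line at the median of each list and a gray band over the middle 50% of all tested genes (-0.51 to 0.65). Medians run from -0.27 for hyaluronan genes to 0.70 for integrin ligands.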

How the data were processed

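PolyA RNA-seq of 3 GM and 3 DM samples was analysed, grouped by the labels. The authors deposited raw counts per gene and per mRNA transcript, without normalization, made after HISAT2 alignment (version not given in the sources used here). RPKM values were computed by the authors from these counts, the deposited length in bases and the summed counts per sample. The methods name the buffalo genome, the tables list cattle Ensembl identifiers and no build, and the submitters' processing notes list mm8, mm9 and Bowtie 0.12.2, which match neither, so positions are given as deposited. Members and lists were matched by the symbols in the table, and the 2 rows of RAC1 count separately. The lists of differential features, which hold the authors' own log2 fold changes and p-values, and the ncRNA table were not used.

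Here, edgeR 4.0.16 in R 4.3.3 was applied (glmQLFit and glmQLFTest, TMM factors 0.948 to 1.04) to genes whose 6 samples summed to 10 counts or more, with Benjamini-Hochberg adjustment over all tested genes. Standard errors came from the F statistic and CPM used TMM library sizes. Genes were compared with each other on RPKM. Subunit shares and the alpha to beta ratio were compared by exact two-sided permutation tests in scipy 1.17.1, whose smallest p is 0.1; intervals cover 95%. The test was also run on simulated data. All members were named, and from each list the 2 called genes that rose most and the 2 that fell most, if their mean reached 10 CPM and the groups did not overlap. The members and lists were chosen with earlier results of these data known. Alternatives were DESeq2 1.42.0, other scalings, low count filters and fold limits, a replicate block and leaving out each sample. No sequences are shown here.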

Additional observations from a re-analysis of the deposited data

How the results depend on the processing

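The 11 calls were the same genes with DESeq2, with DESeq2's size factors in edgeR, with no filter on low counts, with edgeR's filterByExpr and without DM replicate 3. Library size alone added CD44, for 12 calls (beside 25.2% of all genes called), and moved the median of all genes from 0.03 to -0.07. When a gene had to reach 1 RPKM in over 50% of samples, 28 members could be tested, and 7 were called, 4 of them higher in DM (ITGA2, ITGB1BP2, ITGB6 and ITGB7 dropped out). Without a minimum fold change 28 members were called, 13 higher and 15 lower, beside 63.0% of all genes, and 116 genes of the 5 pathway lists in place of 53. A test against a fold change of 2 kept 6 members, 3 of them higher, and 28 list genes (ITGA11, ITGA2, ITGA4, ITGB5 and ITGB7 were lost). Leaving out single samples gave 9 to 11 member calls and 48 to 56 list calls. ITGA2, ITGA11 and CD44 changed sides as described. Shares of all genes called under the RPKM minimum, the test against a fold change of 2 and the left-out samples are not given here. The counts under these settings therefore say only which calls held. Leaving out samples moved the log2 fold change of CD9 between -0.053 and 0.12 and that of ITGA10 between -0.18 and 0.84, and the median of the members between -0.053 and 0.19, the lowest of each without DM replicate 3. CD9 was at -0.03 without GM replicate 1 and at -0.064 with library size alone. Of the 35 members, 13 stayed on the same side of the call in all settings run. Of those that changed sides, 17 did so when the minimum fold change was removed, which alters the definition of a call. No pairing by replicate number was seen: same-numbered GM and DM samples deviated together with r of -0.02 to -0.01. Of the samples, 0 of 6 correlated best with their own number. Values this small cannot settle whether samples were paired, since a weak effect of a shared culture could look the same. A fit with a replicate block called the same 11 members, 7 higher and 4 lower, 53 list genes and 11 transcripts. The shares of all genes and transcripts called in that fit are not given here either. Levels below 1 RPKM, as for ITGB7, ITGB4 and ITGA2, rest on few counts.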

Other observations

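Beyond the genes above, 7 further genes of the table have a description that names an integrin, and 5 of these had enough counts for a test. This search was made after results of the series were known. Of the 5 genes, 2 were called, both higher in DM, beside 25.3% of all tested genes called and 15.0% called higher. With so few genes, found by a search made afterwards, the count is no result about such genes. ITGBL1, a secreted protein with repeats like those of integrin beta chains, had 11, 9 and 19 counts in GM and 244, 308 and 751 counts in DM. It rose by 5.20 ± 0.48 on the log2 scale (edgeR adjusted p = 4.25e-06), and by 4.59 without DM replicate 3, its highest sample. CIB2, a calcium-binding and integrin-binding protein, measured 5.21, 4.59 and 5.72 CPM in GM and 16.05, 13.9 and 10.2 CPM in DM and rose by 1.37 ± 0.17 (edgeR adjusted p = 4.79e-05). Its relative CIB1 was not called, with a log2 fold change of -0.26, and neither were ITFG1 (0.29) and ITFG2 (-0.12).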
